A study of Homo sapiens with 32 samples.

Results

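The genes of cholesterol and fatty acid synthesis were followed through every comparison of Ewing sarcoma cells with and without cohesin or Polycomb subunits. They are 33 genes, chosen by name, out of 28278 gene symbols counted in the cell clones, and all 33 were also found by Ensembl gene among the 60199 genes of the knockdown table. By role they are 6 genes of the mevalonate arm, 11 of the squalene and sterol arm, 6 regulators and a sterol carrier of the SREBP system, 4 genes of acetyl-CoA supply and 6 of fatty acid synthesis and desaturation. The genes listed as acetyl-CoA supply are ACLY and ACSS2, which make acetyl-CoA, and ACAT2 and AACS, which use acetyl-CoA and acetoacetate. The cells were A673, an Ewing sarcoma line, with the exception of an isogenic pair each of SK-N-MC and A4573, which are also Ewing sarcoma lines. In experiments 1 and 2, A673 clones with CRISPR knockout of STAG2 (STAG2 KO, 2 and 3 libraries) were compared with STAG2-proficient cells, which in each experiment were 2 libraries of the WT clone and 1 of the parental line. Experiment 2 also held 3 EZH2 KO and 3 SUZ12 KO libraries, and experiment 3 held 3 STAG1 KO libraries with 1 WT clone and 1 parental library. In experiment 4, A673 cells received a pool of siRNAs to STAG2 (siSTAG2) or a control transfection (siC), with 3 libraries each. The SK-N-MC pair was a STAG2 KO and a WT library, and the A4573 pair was the original, STAG2-mutant line, labelled WT, and cells in which STAG2 had been restored by knock-in (KI), with 1 library each. The WT clone carries an inducible Cas9, as do the KO clones derived from it, while the parental line does not. Each KO library is from 1 clone, so that an effect of the edit and a property of the clone are separated only by the other clones of that genotype.

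Cholesterol is built from acetyl-CoA through mevalonate, isoprenoid units, squalene and lanosterol. Fatty acids are built from the same acetyl-CoA by acetyl-CoA carboxylase and fatty acid synthase, and are then elongated and desaturated. Most of the enzymes are induced together by the SREBP transcription factors, which SREBF1 and SREBF2 encode. SCAP escorts the SREBP precursors from the endoplasmic reticulum to the Golgi when sterols are low, and the INSIG proteins hold SCAP back when sterols are high. INSIG1 is itself an SREBP target, so that its transcript is often read together with those of the enzymes.

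Libraries of A673 clones held 15734628 to 20663679 counts, those of the isogenic pairs 29322507 to 32261248, and 6852340 to 8184632 reads were recovered from the values of the knockdown. The summed level of 8 Ewing sarcoma markers was 750 to 1508 CPM in the A673 clones, and those of hepatocyte, adipocyte, leukocyte and epithelial markers were at most 2.70 CPM there. In the isogenic pairs the leukocyte markers reached 58.3 CPM, and their part in the ratios of the pairs was not tested. Levels of the clones are given as CPM scaled together over the 22 libraries by edgeR's TMM method (normalized CPM). STAG2 was at 255 to 358 normalized CPM in the 6 STAG2-proficient libraries of experiments 1 and 2. In the STAG2 KO libraries it was at 42.2, 183, 68.9, 59.2 and 63.4, the 183 being that of the library marked 24. STAG1 was at 61.1, 14.99 and 33.0 in the STAG1 KO libraries marked 1, 5 and 7, where the parental library had 69.1 and the WT clone 57.4, so that the library labelled STAG1 KO 1 lay between its controls. EZH2 was at 28.3 to 54.9 in EZH2 KO against 171 to 193 in the controls, and SUZ12 at 11.3 to 20.5 in SUZ12 KO against 59.9 to 66.6. All of these are transcript levels, and they do not give the protein status of a clone.

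The STAG2-proficient libraries differed from each other in these genes. In the parental library of experiment 1, 29 of 33 genes were above the mean of the WT clone libraries of that experiment, with a median difference of 1.29 on the log2 scale, and 21 were past 2-fold higher and 0 past 2-fold lower, against 2.39% and 6.66% of 15575 genes. No test applies to a single library. INSIG1 was at 267 normalized CPM there, against 46.2 and 47.3 in the WT clone. HMGCS1, which makes the substrate of the mevalonate pathway, was at 749 against 154 and 162. ACSS2, which makes acetyl-CoA from acetate, was at 206 against 50.1 and 50.4. The transcripts of the regulators themselves were near those of the WT clone, with SREBF1 at 241 against 267 and 265, SREBF2 at 456 against 464 and 456, and SCAP at 64.1 against 71.3 and 70.8. In experiment 2 the parental library lay on the other side of the WT clone, with a median difference of -0.46 and 1 of 33 genes above it. In experiment 3 the median difference was 0.06.

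**Figure D1:**
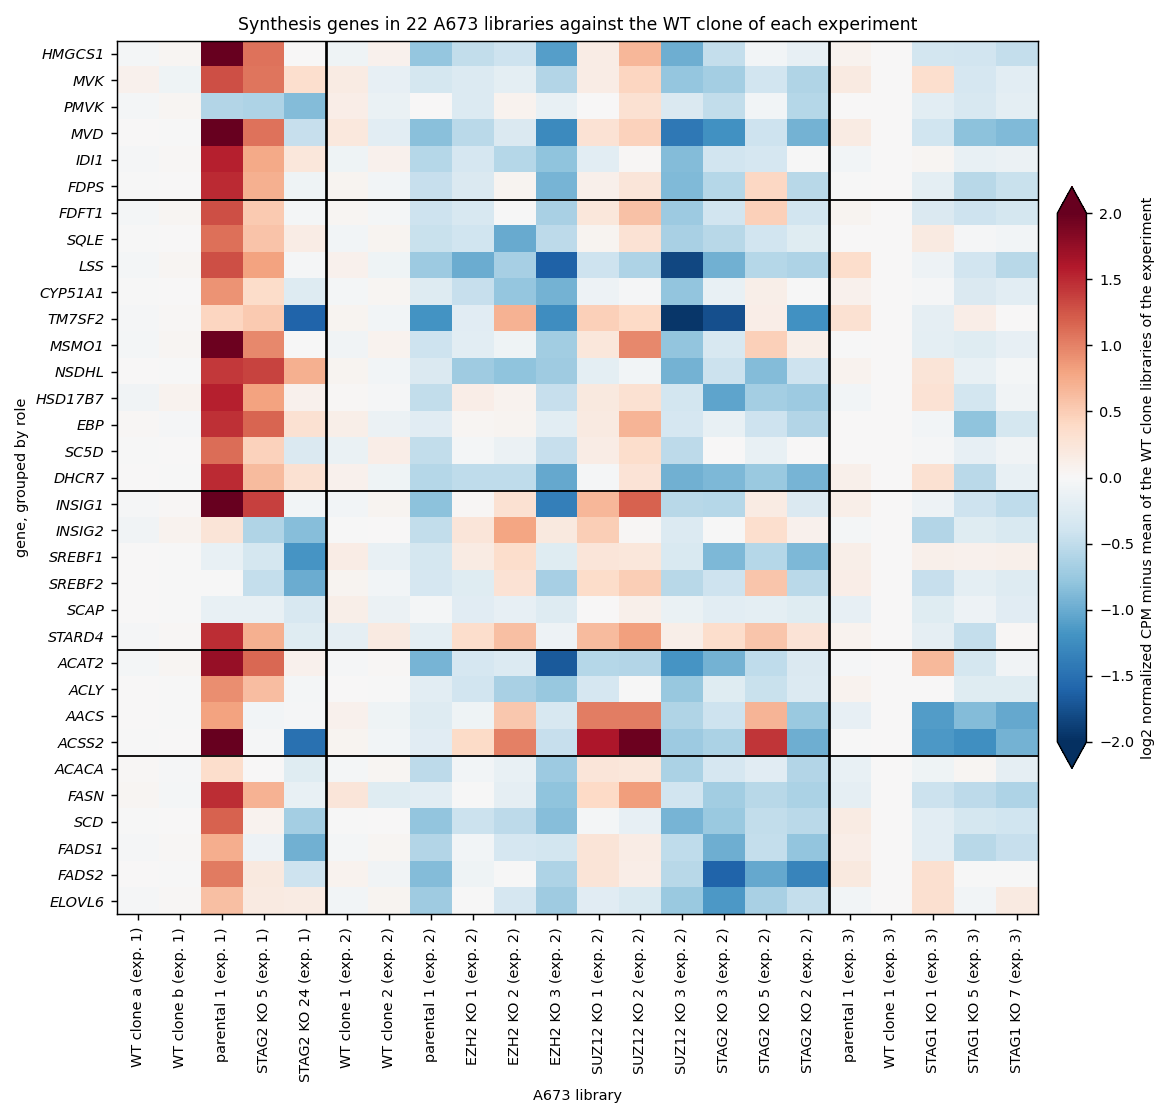
Each square is the log2 normalized CPM of a gene in an A673 library minus the mean of the WT clone libraries of the same experiment. Rows are the 33 genes grouped by role, columns the 22 libraries, and vertical lines separate experiments 1 to 3. The parental library of experiment 1 is red in nearly every row of enzymes, and the libraries EZH2 KO 3 and SUZ12 KO 3 are blue in nearly every row.

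KO clones of 1 genotype also differed from each other. Their median range was larger over the list than over all genes in SUZ12 KO and EZH2 KO, and smaller in STAG1 KO and STAG2 KO. In SUZ12 KO, clones 1 and 2 had median differences of 0.18 and 0.28 from the WT clone and clone 3 had -0.73, and clone 3 was the lowest of the 3 for 33 of 33 genes, against 40.3% of 15575 genes. In EZH2 KO, the medians were -0.22, -0.15 and -0.69, and clone 3 was the lowest for 30 of 33 genes, against 35.3% of all. The range between SUZ12 KO clones had a median of 0.89 over the list and of 0.48 over all genes, and 15 of 33 genes had a range past 1 against 19.9% of all. Between EZH2 KO clones it was 0.61 and 0.51, and 4 of 33 genes had a range past 1 against 21.5% of all. Between STAG1 KO clones it was 0.29 and 0.39, and the library marked 5 was the lowest for 19 of 33 genes against 35.5% of all. Between STAG2 KO clones of experiment 2 it was 0.42 and 0.70, and clone 3 was the lowest for 20 of 33 genes against 26.4% of all. In STAG2 KO, the libraries of experiment 1 had median differences of 0.58 (marked 5) and -0.09 (marked 24), and those of clones 3, 5 and 2 in experiment 2 had -0.55, -0.33 and -0.54. The library named in each genotype was picked because it was the lowest for most of the 33 genes, so these shares are a description. What set these libraries apart was not tested.

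The promoters of 4 genes are shown. ACSS2 and AACS are the 2 genes called in more than 1 of the 5 replicated comparisons. INSIG1 and INSIG2, whose transcripts mark the sterol response and its brake, are shown beside them. Of these, INSIG1 was called in siSTAG2 only and INSIG2 in none of the replicated comparisons. The promoters are windows of 250 bases before to 50 after an annotated start in RefSeq (GRCh38.p14), all on the + strand. Capitals mark matches, on either strand, to CCAAT (the NF-Y box), GGGCGG (the GC box of Sp1) or CACGTG (an E-box, which SREBPs can bind), and runs of capitals can hold overlapping matches. The first ACSS2 window lies at chr20:34874739-34875038 and the second at chr20:34876362-34876661, AACS at chr12:125065185-125065484, INSIG1 at chr7:155297628-155297927 and INSIG2 at chr2:118088221-118088520. A further window of INSIG2 overlaps the one shown.
ACSS2, first start: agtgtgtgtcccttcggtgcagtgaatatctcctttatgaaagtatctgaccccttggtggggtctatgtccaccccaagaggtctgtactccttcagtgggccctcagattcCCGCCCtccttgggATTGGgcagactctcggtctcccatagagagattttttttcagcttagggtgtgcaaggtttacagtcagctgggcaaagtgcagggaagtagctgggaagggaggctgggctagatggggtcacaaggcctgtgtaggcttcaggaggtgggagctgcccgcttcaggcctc
ACSS2, second start: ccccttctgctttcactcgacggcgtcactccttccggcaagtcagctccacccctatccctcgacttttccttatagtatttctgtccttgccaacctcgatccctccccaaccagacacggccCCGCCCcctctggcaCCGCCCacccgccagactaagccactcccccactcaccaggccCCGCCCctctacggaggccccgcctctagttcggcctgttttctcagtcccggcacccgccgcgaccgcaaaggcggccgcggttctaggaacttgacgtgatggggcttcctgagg
AACS: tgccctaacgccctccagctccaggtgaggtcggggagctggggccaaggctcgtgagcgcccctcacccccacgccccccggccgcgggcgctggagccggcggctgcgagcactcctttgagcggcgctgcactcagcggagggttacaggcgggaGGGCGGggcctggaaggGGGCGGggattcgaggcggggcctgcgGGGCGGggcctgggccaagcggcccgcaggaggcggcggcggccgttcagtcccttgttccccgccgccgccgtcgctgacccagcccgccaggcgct
INSIG1: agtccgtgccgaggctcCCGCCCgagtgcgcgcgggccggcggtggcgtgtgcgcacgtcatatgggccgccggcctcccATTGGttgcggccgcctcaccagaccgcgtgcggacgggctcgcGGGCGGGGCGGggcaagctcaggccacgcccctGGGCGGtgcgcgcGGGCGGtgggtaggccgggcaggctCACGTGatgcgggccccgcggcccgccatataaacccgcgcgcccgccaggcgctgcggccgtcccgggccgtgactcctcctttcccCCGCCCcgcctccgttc
INSIG2: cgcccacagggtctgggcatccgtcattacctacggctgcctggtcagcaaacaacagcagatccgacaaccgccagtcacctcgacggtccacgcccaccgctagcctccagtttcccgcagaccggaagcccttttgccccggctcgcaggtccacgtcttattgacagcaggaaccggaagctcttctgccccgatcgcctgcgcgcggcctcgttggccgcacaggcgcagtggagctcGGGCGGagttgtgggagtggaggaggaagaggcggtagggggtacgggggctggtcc
The INSIG1 window held 1 CCAAT, an E-box that reads the same on both strands and 6 GC boxes. The INSIG2 window held 1 GC box and none of the others, AACS 3 GC boxes, and ACSS2 1 CCAAT and 1 GC box at the first start and 3 GC boxes at the second. RefSeq windows were at hand for 29 of the 33 genes. A CCAAT was found in at least 1 window of 21 of these genes, and in 62.5% of their 40 windows against 34.6% of all 35116 windows. A GC box was found in 90.0% of their windows against 45% of all, and an E-box in 12.5% against 7.26%. The sterol regulatory element, searched as TCACNCCAC, was found in 1 window, that of SREBF2, against 1.13% of all windows. These matches describe the letters only.

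In STAG2 KO clones of A673, SREBF1 was called lower, 3.03% of the list against 5.76% of all genes. Most other estimates were below 0 without passing the test, and their count depended on libraries of experiment 1, as given below. SREBF1 encodes the SREBP-1 factors that drive fatty acid genes. It had a lowest value of 139, a median of 219 and a highest of 267 normalized CPM in the 6 STAG2-proficient libraries. The STAG2 KO libraries were at 208 and 117 in experiment 1 and at 94.8, 120 and 95.1 in experiment 2. Within each experiment every KO library was below every control. This was also so for SCAP, though the parental library and the KO library marked 5 of experiment 1 were both at 64.1. The share of all genes with this pattern was not counted, so the pattern is a description only. Over both experiments the SREBF1 groups overlapped through the library at 208. The means were 211 ± 54.9 (SD, n = 6) and 127 ± 46.9 (SD, n = 5), and the fitted log2 fold change was -0.63 (SE 0.155, adjusted p = 0.0227 by edgeR's quasi-likelihood test), or 35.2% lower. It was the only gene of the list called, in a comparison that called 5.76% of 13574 genes lower, 6.67% higher and 12.4% in either direction. None of the 33 genes was apart between the groups, where 4.94% of genes were all lower and 3.29% all higher in KO. The call was lost without WT clone library 1 of experiment 2 (adjusted p = 0.0570), without KO clone 3 of experiment 2 (0.0531), with library size scaling (0.0578), with no experiment term (0.1001), and in experiment 1 alone (0.0917) or experiment 2 alone (0.104), with estimates of -0.59 to -0.70. The WT clone libraries of experiment 1 were nearly alike, and with both summed into 1 library SREBF1 had -0.62 (adjusted p = 0.0483) and 32 of 33 estimates were negative.

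**Figure D2:**
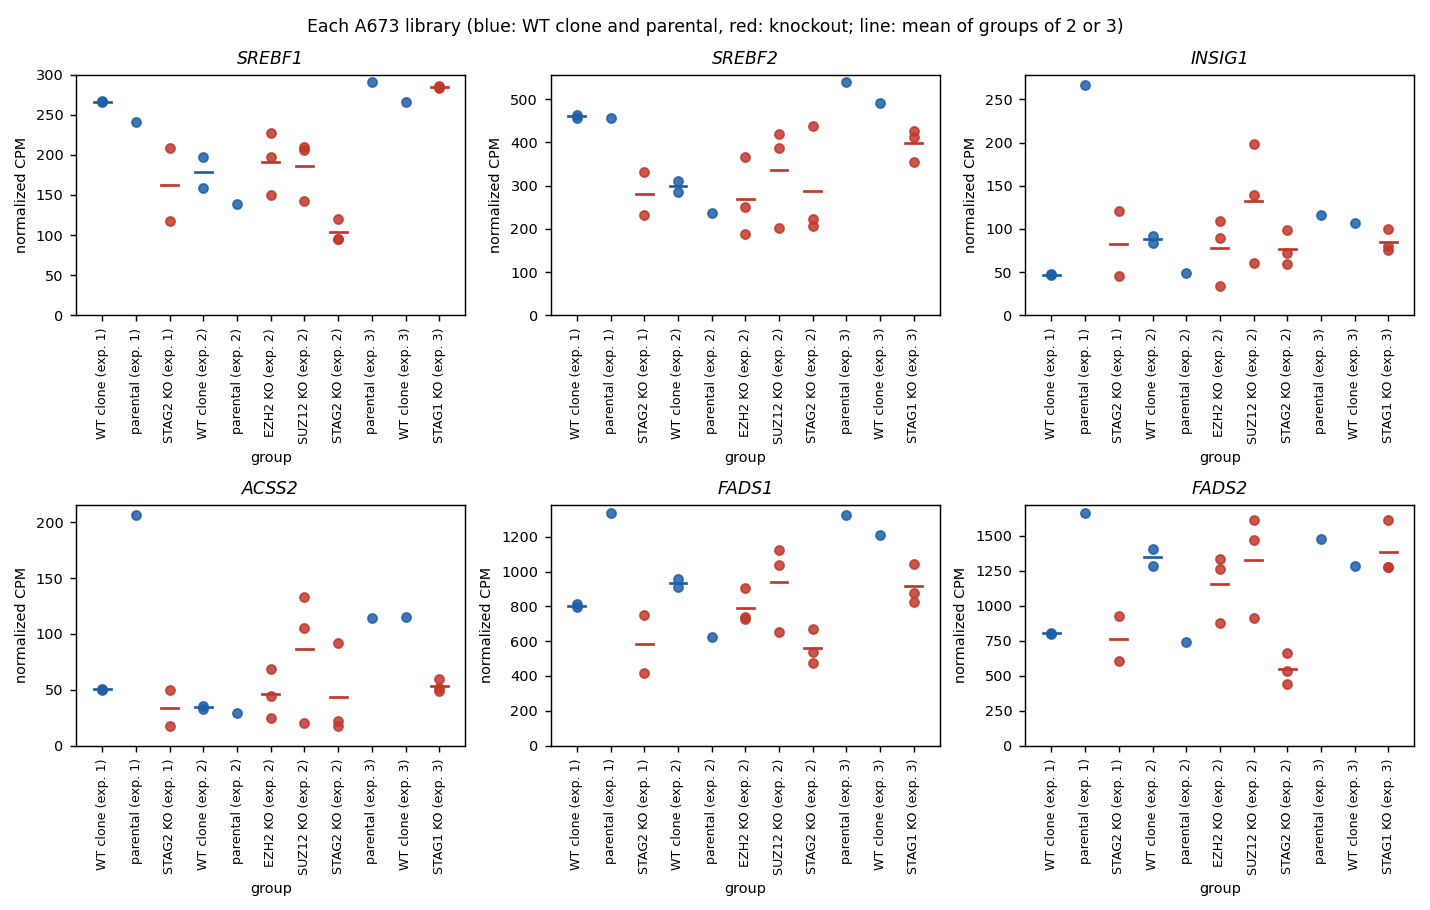
Normalized CPM of 6 genes in every A673 library, with the groups on the horizontal axis. Points are libraries and short lines are means of groups of 2 or 3 libraries. SREBF1 in STAG2 KO and ACSS2 in STAG1 KO are lower than in the controls of the same experiment. The parental library of experiment 1 is high for INSIG1 and ACSS2.

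The desaturases had estimates below 0 in STAG2 KO without being called, and that of FADS2 was the lowest of the list. FADS2, which makes the first double bond in the route to long polyunsaturated fatty acids, had 739, 1044 and 1660 normalized CPM as its lowest, median and highest control values, and 924, 604, 442, 658 and 535 in the KO libraries. Its log2 fold change was -0.77 (SE 0.256, adjusted p = 0.0752). FADS1, the desaturase that acts after it, had control values of 626, 863 and 1338, and KO values of 748, 414, 476, 671 and 540, with a log2 fold change of -0.61 (SE 0.212, adjusted p = 0.0887). SCD, which makes oleate from stearate, had a log2 fold change of -0.50 (SE 0.263, adjusted p = 0.262). FADS1 and FADS2 share exonic sequence on opposite strands, so that in non-directional libraries reads from that stretch cannot be told apart. By DESeq2, SREBF1, FADS1 and FADS2 were called, where 2621 of 21063 genes were.

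Over the 33 genes, 31 estimates were negative in STAG2 KO, with a median of -0.18, against a median of 0.041 and 44.8% negative over all genes tested. By role, the medians were -0.16 for the mevalonate arm, -0.06 for the squalene and sterol arm, -0.17 for the regulators, -0.15 for acetyl-CoA supply and -0.46 for fatty acid synthesis and desaturation. The count of negative estimates depended on the libraries of experiment 1. Without its parental library 16 of 33 were negative and the median was 0.02, and without its KO library marked 24 it was 20 with a median of -0.05. It was 18 with the WT clone as the only control and 21 in experiment 2 alone. Without the parental library of experiment 1, HMGCS1 went from -0.19 to 0.29, MSMO1, a sterol demethylase subunit, from 0.01 to 0.42 and INSIG1 from -0.18 to 0.39. SREBF1 (-0.65, adjusted p = 0.0347), FADS2 (-0.63) and FADS1 (-0.48) stayed negative without it. The other regulators also overlapped between groups over both experiments. SREBF2 had control values of 235, 383 and 464 (lowest, median, highest) and KO values of 331, 231, 223, 437 and 205. SCAP had 58.3, 66.5 and 71.3 against 64.1, 56.9, 54.8, 55.2 and 53.3, and INSIG2 had 14.3, 22.4 and 31.0 against 17.0, 14.2, 20.1, 25.5 and 21.4.

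Whether the effect of STAG2 KO differed between the experiments was tested as a contrast. None of the 33 genes was called (0.00% of all 13574 genes were), and 1 had an unadjusted p under 0.05. The largest estimate was that of ACSS2 (2.12, SE 1.10, adjusted p = 0.212), which in experiment 1 was at 49.5 and 17.7 normalized CPM in KO and in experiment 2 at 21.9, 91.8 and 17.2. INSIG2 had the lowest adjusted p (1.18, SE 0.286, adjusted p = 0.0764).

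Knockdown of STAG2 gave 12 lower and 0 higher genes of the list. The test was limma on log2(value + 1) of the normalized reads, and 11% of 12060 genes were called lower and 9.54% higher (20.5% in all). STAG2 itself was at 1068, 992 and 1090 normalized reads in siC and at 144, 180 and 153 in siSTAG2. In 13 of 33 genes the siSTAG2 libraries were all below the siC libraries, and in 0 they were all above, against 17.6% and 17.4% of genes. The median over the list was -0.16, with 29 of 33 negative, and that over all genes was 0.0066.

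The desaturases had the lowest adjusted p of the list in siSTAG2. FADS2 was at 2482, 2131 and 2618 normalized reads in siC and at 1577, 1626 and 1493 in siSTAG2 (log2 fold change -0.62, SE 0.0669, adjusted p = 1.04e-07). FADS1 was at 11710, 12397 and 11202 in siC and at 8391, 8168 and 7776 in siSTAG2 (-0.54, SE 0.0573, adjusted p = 8.28e-08). SCD was at 9405, 9589 and 9138 in siC and at 6577, 6944 and 6718 in siSTAG2 (-0.48, SE 0.0542, adjusted p = 2.53e-07). These correspond to 34.8%, 31.1% and 28.1% less transcript, and for each the highest siSTAG2 library was below the lowest siC library. The other genes of fatty acid synthesis, ACACA, FASN and ELOVL6, had estimates of -0.16, -0.12 and -0.16 that were not called.

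The genes listed as acetyl-CoA supply split in the knockdown. ACSS2 was at 192, 187 and 165 normalized reads in siC and at 118, 143 and 114 in siSTAG2 (-0.54, SE 0.119, adjusted p = 0.00178). AACS, which activates acetoacetate in the cytosol, was at 286, 332 and 290 in siC and at 256, 231 and 193 in siSTAG2 (-0.42, SE 0.103, adjusted p = 0.00418). For both, the groups did not overlap. ACLY, which makes acetyl-CoA from citrate, and ACAT2, which condenses 2 acetyl-CoA, had estimates of -0.04 each and were not called.

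Of the mevalonate arm, 4 of 6 genes were lower in siSTAG2. PMVK, which phosphorylates mevalonate phosphate, was at 355, 356 and 343 normalized reads in siC and at 293, 237 and 258 in siSTAG2 (-0.42, SE 0.0900, adjusted p = 0.00118). MVD, which makes isopentenyl diphosphate, was at 618, 550 and 467 in siC and at 456, 451 and 387 in siSTAG2 (-0.33, SE 0.0901, adjusted p = 0.00952). MVK, the mevalonate kinase, was at 569, 531 and 546 against 498, 488 and 419 (-0.23, SE 0.0778, adjusted p = 0.0349). All 3 were apart between the groups, as was FDPS, which makes farnesyl diphosphate, at 3223, 3533 and 3112 in siC and at 2820, 3017 and 2776 in siSTAG2 (-0.19, SE 0.0593, adjusted p = 0.0197). HMGCS1 (0.04) and IDI1 (-0.09) were not called. MVK shares exons with MMAB, and FDPS with RUSC1-AS1, on the opposite strand.

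Of the squalene and sterol arm, 2 of 11 genes were lower in siSTAG2. TM7SF2, a sterol reductase, was at 677, 653 and 633 normalized reads in siC and at 525, 574 and 431 in siSTAG2 (-0.37, SE 0.0841, adjusted p = 0.00222). EBP, the sterol isomerase, was at 1509, 1588 and 1488 against 1438, 1364 and 1249 (-0.18, SE 0.0627, adjusted p = 0.0419). The other 9 genes had estimates between -0.22 and 0.10. CYP51A1, lanosterol demethylase, was at 16.7 to 37.2 normalized reads in the knockdown table, and at 103 to 373 normalized CPM in the clones. It shares exons with 4 other genes, and how reads in shared stretches were counted for the knockdown table is not given in the sources used here. INSIG1 was the only regulator called, at 521, 600 and 601 in siC and at 453, 545 and 465 in siSTAG2 (-0.24, SE 0.0817, adjusted p = 0.0394), with overlapping groups. SREBF1 was at 204, 174 and 227 against 158, 180 and 175 (-0.23, SE 0.112, adjusted p = 0.148). SREBF2 (-0.06), SCAP (-0.08) and INSIG2 (0.14) had smaller estimates and overlapping groups, at 519 to 636 against 536 to 608, 282 to 301 against 263 to 303, and 32.5 to 47.9 against 37.7 to 61.2.

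**Figure D3:**
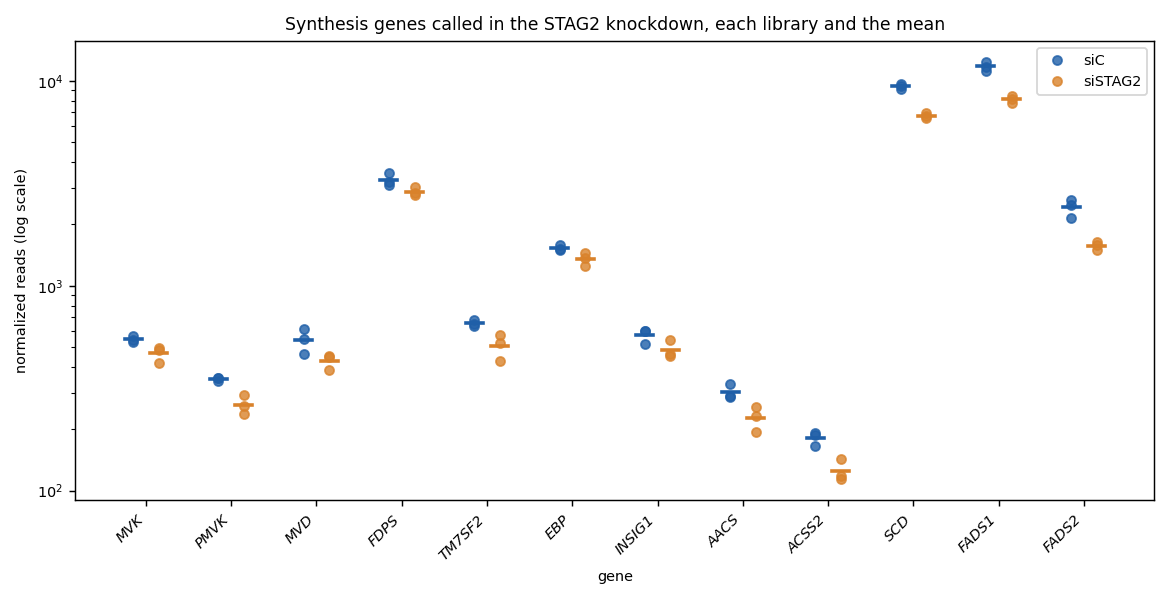
Normalized reads, on a log scale, of the 12 genes called in the STAG2 knockdown. Points are the 3 siC (blue) and 3 siSTAG2 (orange) libraries and lines their means. Every siSTAG2 point is below every siC point for each gene apart from INSIG1, whose siSTAG2 library at 545 lies above the siC library at 521.

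Loss of STAG1, the other STAG subunit of cohesin, was tested in experiment 3, and 3 genes of the list were lower and 0 higher, where 2.50% of 14373 genes were called lower, 2.77% higher and 5.27% in all. ACSS2 was at 115 normalized CPM in either control and at 51.8, 49.1 and 59.9 in the STAG1 KO libraries marked 1, 5 and 7 (log2 fold change -1.10, SE 0.106, adjusted p = 0.0181 by edgeR). AACS was at 46.0 (parental) and 51.7 (WT clone) and at 23.8, 28.4 and 25.5 in STAG1 KO (-0.92, SE 0.123, adjusted p = 0.0257). HMGCS1 was at 380 and 360 against 277, 275 and 259 (-0.45, SE 0.0813, adjusted p = 0.0386). In each of the 3 the KO libraries were close together and below both controls of experiment 3. The library labelled STAG1 KO 1, whose STAG1 transcript lay between those of the controls, was as low as the others. In the STAG2-proficient libraries of experiments 1 and 2, ACSS2 was at 29.3 to 206, AACS at 21.0 to 51.6 and HMGCS1 at 154 to 749. Those ranges hold every STAG1 KO value of the 3 genes, so the calls rest on both controls of experiment 3.

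Below both controls in every STAG1 KO library were 18 of 33 genes, and above both 0, against 24.4% and 22.1% of genes. The median over the list was -0.22 with 27 of 33 negative, and that over all genes was -0.0028 with 50.4% negative. By role, the medians were -0.55 for acetyl-CoA supply, -0.32 for the mevalonate arm, -0.29 for the regulators, -0.20 for fatty acid synthesis and desaturation and -0.17 for the squalene and sterol arm. SREBF1 was at 290 and 266 in the controls and at 286, 283 and 285 in STAG1 KO, a difference of 0.03. SREBF2 was at 539 and 491 against 355, 427 and 412 (-0.37, SE 0.108, adjusted p = 0.102), and INSIG1 at 116 and 107 against 99.9, 80.4 and 75.8 (-0.39, adjusted p = 0.147). SCAP was at 65.3 and 73.3 against 61.9, 68.0 and 62.6, and INSIG2 at 24.6 and 25.4 against 16.9, 21.5 and 20.7. The number called depended on the libraries and the tool. It was 10 by DESeq2, all lower, where 1954 of 20397 genes were called. Without the library labelled STAG1 KO 1 it was 11, where 1310 of 14239 genes were called, and without STAG1 KO 7 it was 1, where 326 of 14123 were. Leaving out the parental or the WT clone library leaves a single control, so no count of calls is given. In these fits 27 and 28 of 33 estimates were negative.

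The difference between the STAG2 and the STAG1 effect was tested directly, since the controls are separate. None of the 33 genes was called, where 6.11% of 14696 genes were (2.36% higher and 3.75% lower), and 1 had an unadjusted p under 0.05. SREBF1 had the lowest adjusted p of the list (-0.70, lower in STAG2 KO, SE 0.243, adjusted p = 0.114). That of AACS was 0.79 (SE 0.417, adjusted p = 0.329) and that of ACSS2 0.67 (SE 0.966, adjusted p = 0.796). The SE of ACSS2 is large beside its estimate, and its STAG2 KO library of clone 5 in experiment 2, at 91.8 normalized CPM, lay above the other 4.

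**Figure D4:**
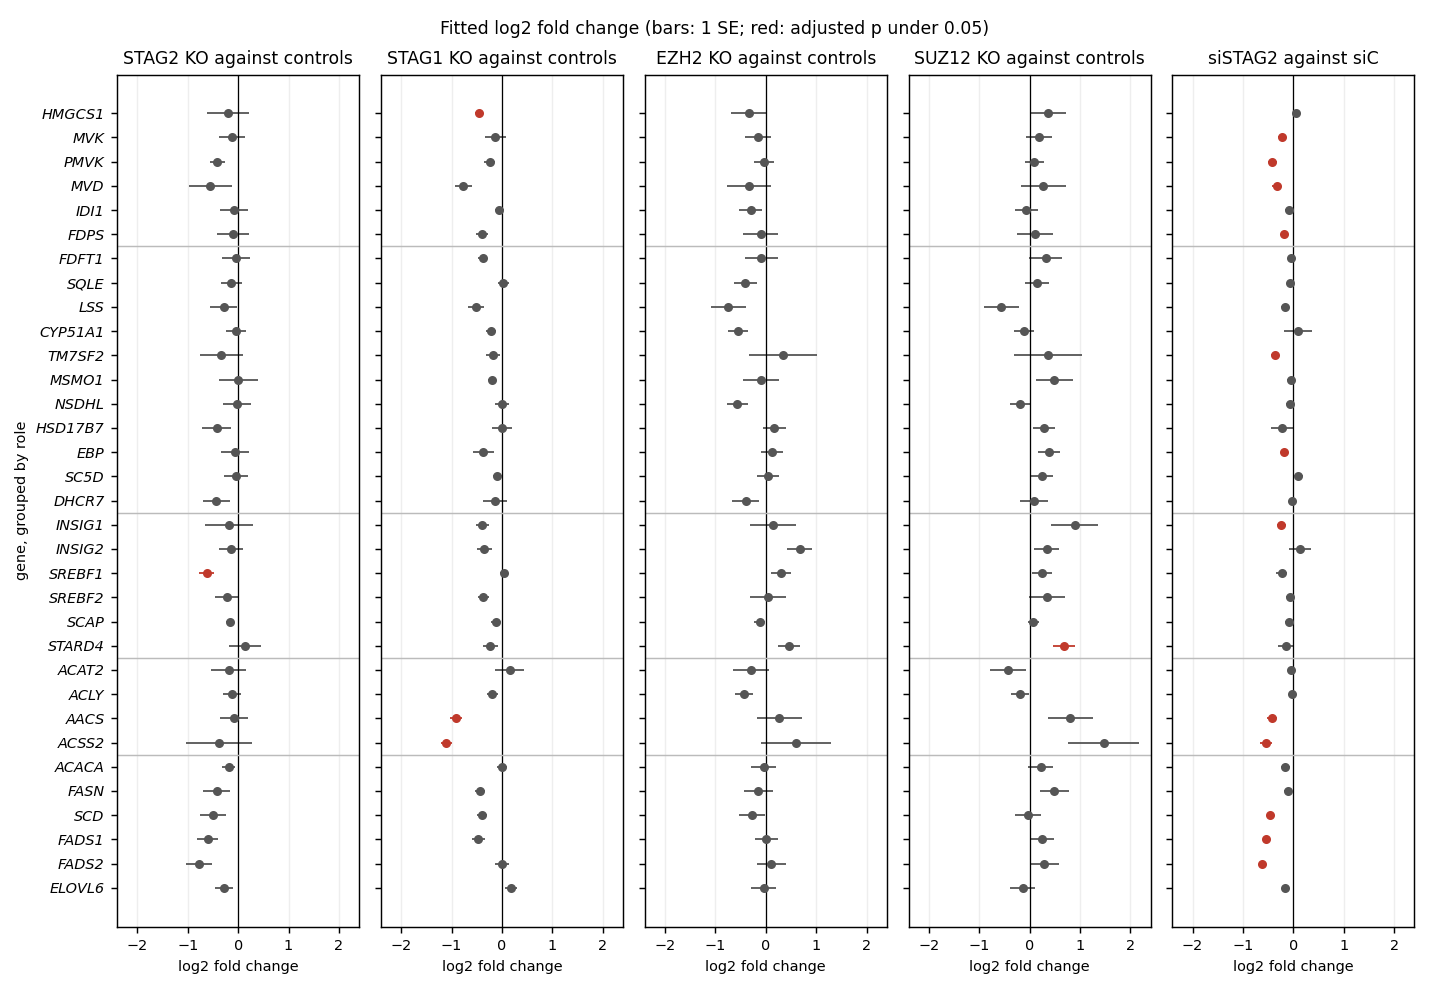
Fitted log2 fold change of the 33 genes in the 5 replicated comparisons, with bars of 1 SE. Red marks an adjusted p under 0.05, by edgeR for the KO clones and by limma for the knockdown. Called genes are 1 in STAG2 KO, 3 in STAG1 KO, 0 in EZH2 KO, 1 in SUZ12 KO and 12 in siSTAG2.

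EZH2 and SUZ12 are subunits of Polycomb repressive complex 2, and the 2 knockouts shared 3 controls. In EZH2 KO none of the 33 genes was called by edgeR, where 15.7% of 15130 genes were (12% higher and 3.69% lower), and 4 had an unadjusted p under 0.05. DESeq2 called 1, CYP51A1, where it called 3317 of 22279 genes. CYP51A1, NSDHL, a sterol dehydrogenase, SCAP and ACLY were lower in all KO libraries than in all controls, and INSIG2 was higher, against 24.9% and 23.1% of genes. INSIG2 was at 20.2, 20.2 and 14.3 normalized CPM in the controls and at 23.9, 34.8 and 23.1 in EZH2 KO (0.67, SE 0.244, adjusted p = 0.0869). CYP51A1 was at 193, 206 and 167 in the controls and at 145, 116 and 103 in EZH2 KO (-0.55, SE 0.197, adjusted p = 0.0824).

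In SUZ12 KO, 1 gene was called, STARD4, a cytosolic sterol carrier, where 14.7% of genes were called higher, 5.87% lower and 20.6% in all. None was apart between the groups, where 23.6% of genes were all higher and 27.2% all lower in KO. It was at 50.4, 64.7 and 50.1 normalized CPM in the controls and at 88.6, 101 and 62.1 in SUZ12 KO (log2 fold change 0.68, SE 0.214, adjusted p = 0.0428), with the KO library of clone 3 inside the range of the controls. The call was lost in 5 of the 6 fits that left out 1 of these libraries, with adjusted p from 0.0604 to 0.175. ACSS2 was at 35.3, 32.9 and 29.3 in the controls, at 105 and 133 in SUZ12 KO clones 1 and 2 and at 20.5 in clone 3 (1.48, SE 0.704, adjusted p = 0.165). AACS was at 26.8, 23.7 and 21.0 against 51.5, 51.1 and 16.6, and INSIG1 at 84.1, 91.4 and 49.4 against 139, 198 and 59.9. For both, clones 1 and 2 were above every control and clone 3 was not. Over the list 25 of 33 estimates were positive with a median of 0.25, without clone 3 it was 29 with a median of 0.45, and without clone 2 it was 17 with a median of 0.02.

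The regulators overlapped between groups in the Polycomb comparisons, with the exceptions of SCAP and INSIG2 in EZH2 KO. SREBF1 was at 197, 159 and 139 in the controls, at 198, 227 and 150 in EZH2 KO and at 210, 207 and 143 in SUZ12 KO. SREBF2 was at 311, 285 and 235, at 251, 366 and 187 and at 386, 419 and 203 in the same order. SCAP was at 69.0, 58.3 and 61.7, at 54.4, 56.5 and 53.1 and at 63.5, 68.3 and 57.7. In each of these genes clone 3 was the lowest of its genotype. The difference between SUZ12 KO and EZH2 KO was called for none of the 33 genes, where 0.00661% of all genes were called, and 3 had an unadjusted p under 0.05. INSIG2 was at 28.5, 20.5 and 16.7 in SUZ12 KO, and its difference from EZH2 KO was -0.34 (SE 0.243).

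The isogenic pairs have 1 library a side, so their ratios carry no test, and 2-fold was used as a mark. Of the 33 genes, 9 were past 2-fold higher and 0 lower in SK-N-MC STAG2 KO than in WT, where 10.2% of 16413 genes were higher and 11.4% lower (21.6% in all). In A4573, 5 were past 2-fold higher and 0 lower in the STAG2-mutant line than in the KI cells, where 7.76% of 16124 genes were higher and 14.1% lower (21.8% in all). The median log2 ratio of the list was 0.71 in SK-N-MC and 0.36 in A4573, and those of all genes were -0.012 and 0.0015. STAG2 was at 293 in WT and 184 in KO CPM in SK-N-MC, and at 34.1 in the mutant line and 86.9 in KI in A4573.

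In SK-N-MC the genes past 2-fold were HMGCS1, MVK, FDFT1 (squalene synthase), SQLE (squalene epoxidase), LSS (lanosterol synthase), DHCR7 (the last reductase of the route), INSIG1, SREBF2 and SCD. HMGCS1 was at 393 CPM in KO and 145 in WT. SREBF2 was at 301 and 97.8, and INSIG1 at 58.5 and 28.5. SREBF1 was at 42.5 and 23.6, SCAP at 159 and 165, and INSIG2 at 22.7 and 18.7. In A4573 the genes past 2-fold were FDFT1, MSMO1, NSDHL, EBP and ACAT2, of which FDFT1 was past 2-fold in both pairs. ACAT2 was at 174 CPM in the mutant line and 48.5 in KI, and FDFT1 at 277 and 128. The regulators went the other way in A4573, with SREBF1 at 166 in the mutant line and 258 in KI, SREBF2 at 256 and 360, SCAP at 88.5 and 110, and INSIG2 at 18.9 and 25.02, while INSIG1 was at 36.2 and 22.4. ACSS2, the gene with the lowest estimate in STAG1 KO, was at 30.2 in KO and 37.2 in WT in SK-N-MC and at 11.7 in the mutant line and 20.6 in KI in A4573. AACS was at 17.7 and 8.98 in SK-N-MC and at 35.7 and 39.0 in A4573.

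**Figure D5:**
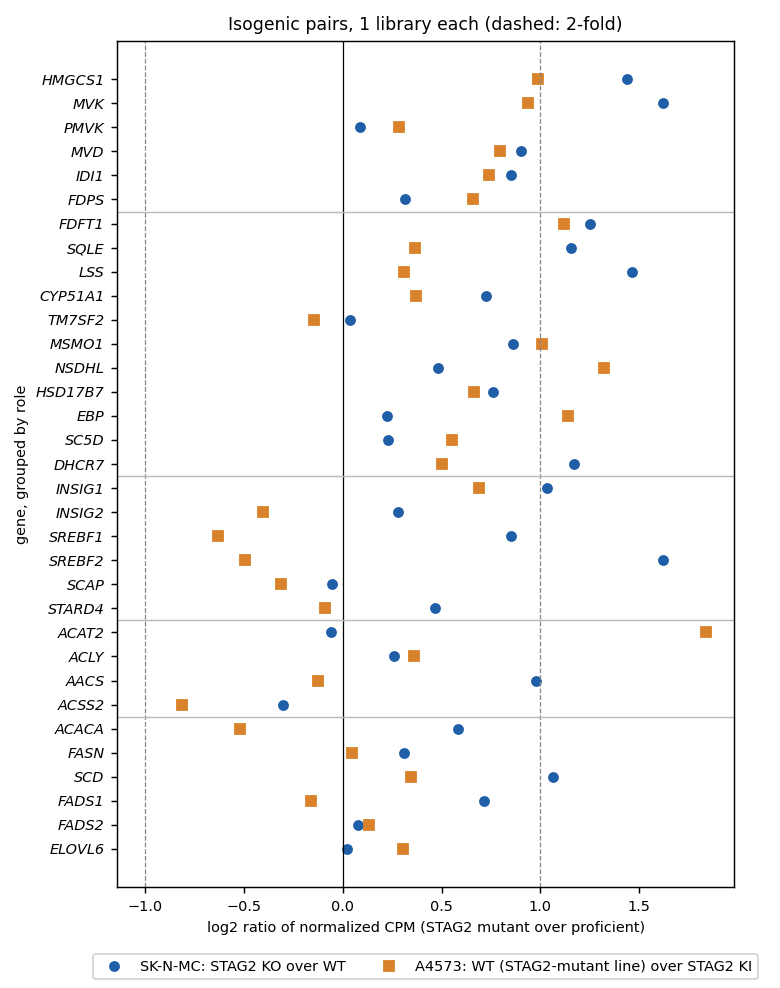
Log2 ratio of normalized CPM between the STAG2-mutant and the STAG2-proficient library of the SK-N-MC (blue circles) and A4573 (orange squares) pairs, for the 33 genes grouped by role, with dashed lines at 2-fold. Most enzymes of sterol synthesis lie to the right of 0 in both pairs, and no gene lies to the left of the lower dashed line.

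Genes next to the synthesis route were described from 5 further lists. Of 37 genes of other fatty acid elongation, activation and esterification, 2 were higher and 2 lower of 33 tested in STAG2 KO (6.06% each, against 6.67% and 5.76% of all genes). HACD1, an elongation dehydratase, went from 17.7 ± 2.47 (SD, n = 6) to 8.65 ± 1.14 (SD, n = 5) normalized CPM (-1.01, SE 0.137, adjusted p = 0.000930), and TECR, the reductase that closes the elongation cycle, from 142 ± 12.6 to 92.6 ± 10.6 (-0.57, SE 0.0984, adjusted p = 0.00367). ELOVL4, an elongase, rose by 0.81 (SE 0.197, adjusted p = 0.0208) and LPIN1, a phosphatidate phosphatase, by 0.67 (SE 0.177, adjusted p = 0.0306). In the knockdown 2 of 30 tested were higher and 8 lower (6.67% and 26.7%, against 9.54% and 11% of all genes), with FADS3 at -1.02 (SE 0.166, adjusted p = 5.34e-05), ACACB at -0.71 (SE 0.183, adjusted p = 0.00613), LPIN1 at 0.39 (SE 0.0810, adjusted p = 0.000917) and GPAT4 at 0.19 (SE 0.0670, adjusted p = 0.0397). In STAG1 KO 3.03% were called higher and 3.03% lower, against 2.77% and 2.50% of all genes. Of 33 tested, 1 was higher, ME1, which supplies NADPH (1.05, SE 0.154, adjusted p = 0.0268). The 1 that was lower was ELOVL2, an elongase whose 2 controls differed widely (14.97 ± 11.9, SD, n = 2, and 0.686 ± 0.330, n = 3, in KO) (-4.43, SE 0.657, adjusted p = 0.0271).

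In the Polycomb knockouts the called shares of the neighbouring lists are set beside those of all genes, 12% higher and 3.69% lower in EZH2 KO and 14.7% and 5.87% in SUZ12 KO. Of 34 tested genes of elongation, activation and esterification, 6 were higher and 2 lower in EZH2 KO (17.6% and 5.88%) and 7 higher and 2 lower in SUZ12 KO (20.6% and 5.88%), shares near the background. ACSL1, which activates long fatty acids, went from 1.21 ± 0.127 (SD, n = 3) normalized CPM to 32.2 ± 5.21 in EZH2 KO (4.82, SE 1.03, adjusted p = 0.00876) and 36.8 ± 2.52 in SUZ12 KO (4.99, SE 1.03, adjusted p = 0.00564). FADS3 went from 21.1 ± 3.23 to 96.8 ± 12.1 (2.28, SE 0.360, adjusted p = 0.00170) and 112 ± 32.0 (2.48, SE 0.362, adjusted p = 0.000797). Of cholesterol storage, transport and efflux, 3 of 19 were higher and 1 lower in EZH2 KO (15.8% and 5.26%) and 3 higher and 2 lower in SUZ12 KO (15.8% and 10.5%). Among them GRAMD1B, a sterol transporter at membrane contacts, had log2 fold changes of 2.13 and 2.39 (adjusted p = 0.00145 and 0.000604), and SCARB1, the HDL receptor, of -1.04 and -1.10 (adjusted p = 0.00340 and 0.00182).

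Of the genes that process and degrade the SREBP system, 1 to 4 were called in 4 comparisons. In STAG2 KO, where 6.67% of all genes were higher and 5.76% lower, 1 of 12 was higher, ERLIN2 (0.32, SE 0.0921, adjusted p = 0.0444), and 2 lower, of which ERLIN1 had -0.41 (SE 0.114, adjusted p = 0.0368), and both encode proteins of the complex that degrades sterol sensors. ERLIN2 was also the gene called in EZH2 KO (0.40, adjusted p = 0.0319) and in SUZ12 KO (0.42, adjusted p = 0.0214), 8.33% of the list against 12% and 14.7% of all genes higher. In the knockdown, against 9.54% and 11% of all genes, 1 of 11 was higher, FBXW7, which marks mature SREBPs for degradation (0.26, SE 0.0785, adjusted p = 0.0189), and 3 lower, among them SEC23A, a coat protein of the vesicles that carry SCAP (-0.37, SE 0.0881, adjusted p = 0.00310). Of the isoprenoid branches, 2 of 13 genes were higher in STAG1 KO, where 2.77% of all genes were, NUS1 (0.55, adjusted p = 0.0476) and PDSS2 (0.74, adjusted p = 0.0462), which serve dolichol and ubiquinone synthesis. Fatty acid oxidation had 3 lower of 24 in STAG2 KO (12.5%, against 5.76% of all genes), among them ECI1 (-0.96, SE 0.226, adjusted p = 0.0176), and 4 lower of 23 in the knockdown (17.4%, against 11%), among them ECI1 (-0.25, SE 0.0758, adjusted p = 0.0174) and ETFB (-0.26, SE 0.0702, adjusted p = 0.0101).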

How the data were processed

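RNA was sequenced from libraries of A673 clones (22), 2 isogenic pairs (4) and a STAG2 knockdown (6). The libraries are described as oligo-dT and non-directional. There is no separate account of the knockdown, whose columns carry the mark FWD, and whether its libraries kept the strand was not tested. According to the submitters' processing notes the reads were handled with TopHat2 2.0.0, Bowtie 0.12.7, SAMtools 0.1.16, FastQC and DESeq2. The authors deposited raw read counts per gene symbol for the clones and pairs. The deposited knockdown table holds a signal per Ensembl gene, namely read counts divided by a factor per library by the authors, from which 100% of values gave whole reads (tolerance 0.01). All columns of values were used.

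The 33 genes and all lists were chosen with earlier results of these data known. Counts were tested with edgeR 4.0.16 (R 4.3.3, TMM, filterByExpr, quasi-likelihood test, two-sided). STAG2 KO was fitted over experiments 1 and 2 with experiment as a term, EZH2 KO and SUZ12 KO together over the 12 libraries of experiment 2, and STAG1 KO over experiment 3. The knockdown was tested with limma 3.58.1 on log2(value + 1) for genes with a mean of at least 10, so that changes of low genes are understated. Adjusted p-values are Benjamini-Hochberg over all genes tested, called under 0.05. Pairs are log2 ratios of TMM-scaled CPM (prior count 2, at least 10 counts in the pair). The scripts were tested on simulated data.

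Libraries of 1 group come from separate clones or labelled replicates, and where nothing names separate cultures the p-values measure only the spread between libraries. Both WT clone libraries of experiment 1 were alike (chi-square per gene 1.33 on average), against 9.41 to 140 for other pairs of clone libraries. They were kept as 2, with their sum as an alternative chosen after seeing the data. In the knockdown the same measure was 1.93 to 3.04 between siSTAG2 libraries and 4.34 to 11.4 between siC libraries. The knockdown p-values therefore rest on another spread than those of the clones, and the counts of calls are not on 1 footing. In experiments 1 and 3 the KO columns name the genotype and a mark, and were used as group members only.

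Without strand, reads of overlapping genes cannot be told apart: 15 of the 33 genes have exons that overlap a gene on the other strand and 5 on the same strand (GENCODE annotation, GRCh38), and 6 have named pseudogenes. Values per library are given for genes called in at least 1 replicated comparison and for SREBF1, SREBF2, SCAP, INSIG1 and INSIG2. Other genes of the 33 were named after their values were seen. Of each further list, at most the 2 called genes with the highest and the 2 with the lowest log2 fold change are named, provided the mean reaches 5 CPM, or 50 normalized reads in the knockdown. A gene that this rule names is not reported here. DESeq2 1.42.0, other scalings and filters, and leaving out each library were the alternatives.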

Additional observations from a re-analysis of the deposited data

Results flagged for a closer look

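A library was marked where it stood far from the rest of its group by Dixon's ratio at the 95% level. This was tested for the 33 genes in the 6 STAG2-proficient and the 5 STAG2 KO libraries of experiments 1 and 2, 66 tests in all. Chance marks about 5% of separate tests. These tests share their libraries and pool the 2 experiments, so that rate is no yardstick for the count, which is a description. The ratio marked 11, and 9 of them were the parental library of experiment 1, the highest of the 6 for each. In that library HMGCS1 was at 749 normalized CPM, CYP51A1 at 373, MSMO1 at 393 and INSIG1 at 267. STARD4 was at 130, AACS at 51.6 and ACSS2 at 206. FASN, the fatty acid synthase, was at 3085 and SCD at 3742. The other 2 were the STAG2 KO library marked 5 of experiment 1, the highest of the 5, with SREBF1 at 208 and FASN at 1780.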

How the results depend on the processing

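In STAG2 KO, where 1 gene was called, DESeq2 called 3, library size scaling 0 and a fit with no experiment term 0. Over all genes these called 2621 of 21063, 1621 of 13574 and 1376 of 13574. Experiment 1 alone called 2 (INSIG2 and SREBF2), where 3663 of 14145 genes were called, and experiment 2 alone 0, where 494 of 13383 were. Leaving out 1 library gave 0 to 5 calls, where 1053 to 4048 genes were called in all. It was 0 without WT clone library 1 or KO clone 3 of experiment 2. Without KO clone 5 of experiment 2 it was 5 (PMVK, SREBF1, SREBF2, FADS1 and FADS2), where 4048 of 13670 genes were called. In STAG1 KO, where 3 were called, DESeq2 called 10 and library size scaling 5. Over all genes these called 1954 of 20397 and 747 of 14373. Without the library labelled STAG1 KO 1 the count was 11, where 1310 of 14239 genes were called. Without STAG1 KO 7 the count was 1, where 326 of 14123 were. Leaving out 1 library gave medians of -0.27 to -0.16. In EZH2 KO, DESeq2 called 1, where 3317 of 22279 genes were called. A fit of its own libraries with their controls called 3 (CYP51A1, NSDHL and ACLY), where 3429 of 14262 genes were called. The EZH2 KO median of -0.09 became 0.08 with library size scaling. In SUZ12 KO, the WT clone as the only control gave 0 calls, where 2316 of 15533 genes were called. Leaving out 1 library gave 0 to 1, where 1874 to 3238 genes were called in all. In the knockdown, leaving out 1 library gave 7 to 10 calls and medians of -0.19 to -0.12, where 1750 to 2533 genes were called in all. It was 7 without siSTAG2 library 3 (PMVK, TM7SF2, AACS, ACSS2, SCD, FADS1 and FADS2), where 1750 of 12063 genes were called. A fit with the replicate number as a block called 12 (2881 of 12060 genes in all), as did edgeR on the recovered reads (2503 of 12199). Same-numbered siC and siSTAG2 libraries had correlations of 0.0257, 0.0372 and 0.0040, and differently numbered ones had -0.0305 to 0.0056. The last of the same-numbered values was below that of siC 3 with siSTAG2 1. Correlations this small, among so few libraries, cannot decide whether the replicate numbers pair the libraries. With 1 control left in experiment 3, the lone library is assumed to vary like the others, so no count of calls is given. The cause of these differences was not tested.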
